A study of Mus musculus with 3 samples.

Results

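Arg1-negative C1q macrophages from mouse tissue labelled non-small cell lung cancer are described here, in 3 single-cell RNA libraries named AI-Exo, PD-L1 and PBS. The members were chosen by counts of unique molecular identifiers (UMIs, 1 per captured transcript molecule): a cell had 10 or more UMIs of C1qa, C1qb and C1qc together and 0 of Arg1. It also had at most 1 UMI of the alveolar macrophage genes Ear1, Ear2, Plet1, Fabp1, Car4 and Krt79, and none of the T cell genes Cd3e and Cd3d or the B cell genes Cd79a and Ms4a1. These rules gave 97 of 10457 cells in AI-Exo, 75 of 9697 in PD-L1 and 68 of 9359 in PBS, 240 of 29513 in all. The labels describe immune cells after drug treatment and give no strain, age, dose, time, sort or number of animals, nor what PD-L1 and AI-Exo stand for beyond the names. PBS is taken as the control. With 1 library per group there is no replicate check, so no difference between libraries is tested; intervals are 95% and cover counting error only. Fewer transcripts per cell and fewer cells holding them cannot be told apart in sums over cells.

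C1q is the recognition subunit of the classical complement pathway, and in tissues its main source is the macrophage. Lung interstitial macrophages, which sit around vessels, airways and nerves, are known in mouse for C1q, Mrc1, Cd163, Folr2 and Lyve1, and clear dead cells through receptors such as Mertk and its bridging ligand Gas6. Arg1, arginase 1, degrades arginine and marks a suppressive state of tumour macrophages, so the rule splits C1q cells by that enzyme.

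Members had a median of 12268 UMIs in AI-Exo, 7459 in PD-L1 and 9670.5 in PBS, against 4425, 3948 and 4380 over all cells of the same libraries. Summed over members the depth was 1297163, 743769 and 783858 UMIs in the same order. Cell barcodes shared between libraries numbered 33 for AI-Exo with PD-L1, 26 for AI-Exo with PBS and 23 for PD-L1 with PBS, and 0 of them were members. A Scrublet doublet score over 0.15 fell on 4 members in AI-Exo, 1 in PD-L1 and 2 in PBS, and doublets were kept. At the edge of the rule, cells with 8 or 9 C1q UMIs that passed all else numbered 4 and 4 in AI-Exo, 2 and 3 in PD-L1, and 3 and 3 in PBS. Members with 10 or 11 C1q UMIs numbered 1 and 4, 3 and 4, and 1 and 1, and the median member had 71, 92 and 109.5. Cells with exactly 1 Arg1 UMI, just outside the rule, numbered 5, 2 and 7.

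Members made up 0.928% of cells in AI-Exo (Clopper-Pearson interval 0.753 to 1.13), 0.773% in PD-L1 (0.609 to 0.969) and 0.727% in PBS (0.565 to 0.920). These 3 intervals overlap. Among all C1q cells that passed the other rules, whatever their Arg1, members were 77.6% of 125 in AI-Exo (69.3 to 84.6), 83.3% of 90 in PD-L1 (74.0 to 90.4) and 54.4% of 125 in PBS (45.3 to 63.3). The intervals of both treated libraries lay above that of PBS. Finding no Arg1 depends on depth, and cells with Arg1 detected had medians of 12603.5, 10810 and 13948 UMIs, against 12268, 7459 and 9670.5 in members. With the rule applied to counts thinned to 3000 UMIs, the share among C1q cells left its interval in 2 of the 3 libraries. The order of the shares of all cells changed in that setting, which leaves out cells under 3000 UMIs (2605, 3173 and 2958). Members were then 1.22% of cells in AI-Exo, 1.33% in PD-L1 and 1.66% in PBS, so that AI-Exo was lowest and PBS highest. Thinning can also drop the UMIs of Arg1 and the other genes that exclude a cell, so cells outside the rule can enter. PBS went from 68 to 106 members. Ratios given below with the rule applied to thinned counts use the full counts of the cells so chosen.

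The label was checked on genes that the rule did not use. The markers of macrophages were present in every library, with Apoe, the lipid carrier, in 84 of 97 members of AI-Exo, 64 of 75 of PD-L1 and 63 of 68 of PBS. Mrc1, the mannose receptor CD206, had UMIs in 42, 47 and 53 members. Csf1r, the receptor for macrophage colony-stimulating factor, had 153, 238 and 292 CPM, the UMI count scaled to a fixed library total, in AI-Exo, PD-L1 and PBS. Ly6c2, a marker of inflammatory monocytes, had 77.9, 51.1 and 24.2 CPM. The 10 monocyte markers together, Ly6c2 among them, went the other way and summed to 1146, 834 and 1784 CPM, highest in PBS. They include F13a1, which resident macrophages also make. Its level, given below, was far higher in PBS than in both treated libraries, and much of the PBS excess in the sum came from it. Summed markers of T cells were at 76.3, 118 and 116 CPM, of red blood cells at 3.08, 2.69 and 31.9 CPM, and of tumour-like cells at 10.0, 9.41 and 19.1 CPM. Markers of several other myeloid and lymphoid types were also present. Those of mature dendritic cells summed to 1112, 678 and 716 CPM, of alveolar macrophages to 881, 621 and 1528, and of natural killer cells to 527, 230 and 171. Most of the mature dendritic cell sum in each library was Fabp5, which is also on the lipid list and given below. In AI-Exo, PD-L1 and PBS, 1 cell held 30.5%, 40.3% and 50.1% of that sum. Those of cDC1 summed to 554, 516 and 596 CPM and of plasmacytoid dendritic cells to 505, 801 and 528. Most of the plasmacytoid sum was Bst2, also on the type I interferon list, with 325, 641 and 286 CPM. Of the 7 plasmacytoid genes, 3, 2 and 3 reached 20 CPM. One cluster of members was led, in summed counts, by the lymphocyte genes Nkg7 and Gzma and another by the neutrophil genes Camp, S100a9 and Ngp. The median member had 0 UMIs of the natural killer cell markers in each library. Of their sum, 1 cell held 25.8% in AI-Exo, 95.9% in PD-L1 and 94.8% in PBS. Neutrophil markers were at the highest level among these types in each library: the 12 genes summed to 12439 CPM in AI-Exo, 3420.4 in PD-L1 and 2081 in PBS. In 18, 8 and 5 members they took 1% or more of the UMIs. Results are also given with those members left out; the part of the other types in the results was not tested.

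Values between libraries are log2 ratios of summed CPM plus a pseudocount of 10, and a gene counts as higher or lower at a ratio of 1.5, which is 0.58 on the log2 scale. Genes with a mean of 10 CPM or more over both libraries are those counted as tested, and lists are described over such members. Over all of them, 517 were higher and 1079 lower in AI-Exo over PBS (6.59% and 13.8% of 7847), and 443 were higher and 1206 lower in PD-L1 over PBS (5.62% and 15.3% of 7889). In AI-Exo over PD-L1, 516 were higher and 456 lower (6.74% and 5.95% of 7659). The median gene lay at -0.125 in AI-Exo over PBS and -0.148 in PD-L1 over PBS, so list medians are read against these. Scaling by the median of ratios instead moved them to -0.015 and -0.026, with 736 higher and 705 lower in AI-Exo over PBS and 687 higher and 747 lower in PD-L1 over PBS. The contrasts with PBS share the PBS members.

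The list farthest from the median gene was that of resident interstitial macrophages, most of whose genes were lower in both treated libraries than in PBS. Of the 20 list members tested, 16 were lower and 2 higher in AI-Exo over PBS, with a median of -1.89, and 14 were lower and 2 higher in PD-L1 over PBS, with a median of -1.32. Mrc1, which belongs to the macrophage identity, scavenger and alternative activation lists and is among the markers given for these cells, had 153 CPM in AI-Exo (132 to 175), 235 in PD-L1 (202 to 273) and 1281 in PBS (1203 to 1363). Its log2 ratio was -2.99 in AI-Exo over PBS and -2.40 in PD-L1 over PBS. PBS stood far above both treated libraries, and the intervals did not overlap. F13a1, the coagulation factor XIII A chain that resident macrophages and monocytes make, had 41.6 CPM in AI-Exo, 75.3 in PD-L1 and 628 in PBS (log2 ratios -3.63 and -2.90 over PBS).

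Other genes of resident macrophages lay in the same direction. Stab1, the scavenger receptor stabilin-1, had 64.8, 79.3 and 431 CPM in AI-Exo, PD-L1 and PBS, and Cd163, the haemoglobin scavenger receptor, had 6.94, 12.1 and 105. Clec10a, a lectin of alternatively activated macrophages that comes from the scavenger list, had 10.8, 21.5 and 126 CPM. In each of these PBS was the high library. Gas6, the ligand that bridges dying cells to Mertk, had 16.2 CPM in AI-Exo, 52.4 in PD-L1 and 199 in PBS, with log2 ratios of -3.00 and -1.74 over PBS. Pf4, a platelet chemokine gene that resident macrophages also express, had 402, 676 and 1643 CPM, and Folr2, a folate receptor of resident macrophages, had 39.3, 76.6 and 149. Ccl8, a chemokine that draws monocytes, had 177, 209.7 and 1172 CPM, and 1 cell held 50.6% of its UMIs in PD-L1. Ccr2, the monocyte homing receptor, had 159, 180.2 and 296 CPM. Lyve1, a hyaluronan receptor of perivascular macrophages, had 2 UMIs in AI-Exo, 1 in PD-L1 and 51 in PBS, in 2, 1 and 8 cells. The list members that went the other way were Cd83, an activation marker (663, 532 and 434 CPM) and Tmem119 in AI-Exo over PBS, and Ccl12, a monocyte chemokine (363, 582 and 283 CPM), and Tmem119 in PD-L1 over PBS. Tmem119 had 40.1, 37.6 and 15.3 CPM and was chosen after its values were seen.

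**Figure D1:**
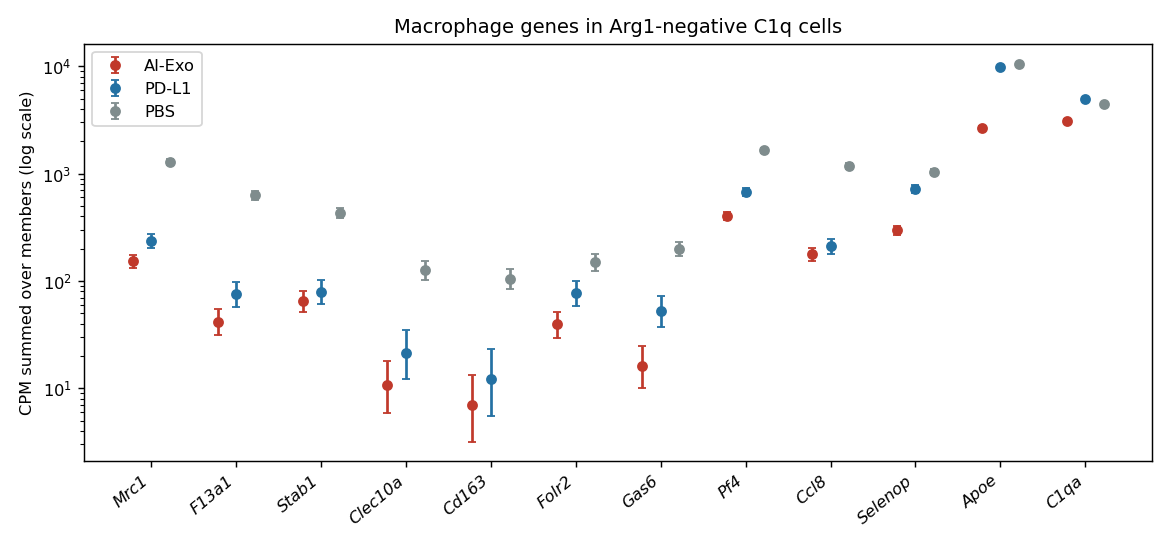
CPM summed over members (vertical axis, log scale) for 12 macrophage genes in AI-Exo, PD-L1 and PBS; points are the library sums and bars the exact 95% Poisson intervals of the UMI counts. Mrc1, F13a1, Stab1, Clec10a and Cd163 were low in both treated libraries, whereas Apoe was low in AI-Exo (2674 CPM) and high in PD-L1 and PBS (9866 and 10518 CPM).

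In cells thinned to 3000 UMIs each (94, 67 and 66 members; 3, 8 and 2 shallower ones left out), the median cell held 5 UMIs of the interstitial list in AI-Exo, 9 in PD-L1 and 18 in PBS. Mrc1 had a UMI in 27.7% of members in AI-Exo, 34.3% in PD-L1 and 62.1% in PBS. Before thinning the shares were 43.3%, 62.7% and 77.9%. B cells, which should lack Mrc1, had it at 1.43%, 1.39% and 2.14% at the same depth. Both the detection and the summed level were thus highest in PBS.

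Part of the summed difference lay in 1 group of cells. Unsupervised clustering of the 240 members gave 5 clusters, one of them led by Ccl8, Cd163, Mrc1, F13a1 and Lyve1, with 3 cells in AI-Exo, 6 in PD-L1 and 25 in PBS; its size is not a result, as the clusters were made with these genes. Without it the list median was -0.86 in AI-Exo over PBS and -0.13 in PD-L1 over PBS, short of 1.5-fold in PD-L1. The cluster is led by genes of this list and lies mostly in PBS, so a smaller difference without it was built in. In the largest cluster alone the medians were -0.16 and -0.19, and Pf4 and Folr2 lay higher there in AI-Exo than in PBS, by 1.75 and 1.21 on the log2 scale. Within the clusters where all 3 libraries had 5 or more cells, Mrc1 stood at 132, 145 and 648 CPM in AI-Exo, PD-L1 and PBS in one, at 128, 129 and 412 in the next, and at 126, 295 and 627 in another. In the largest, of 62 cells, it stood at 88.9, 115 and 88.8 CPM, nearly equal in AI-Exo and PBS.

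**Figure D2:**
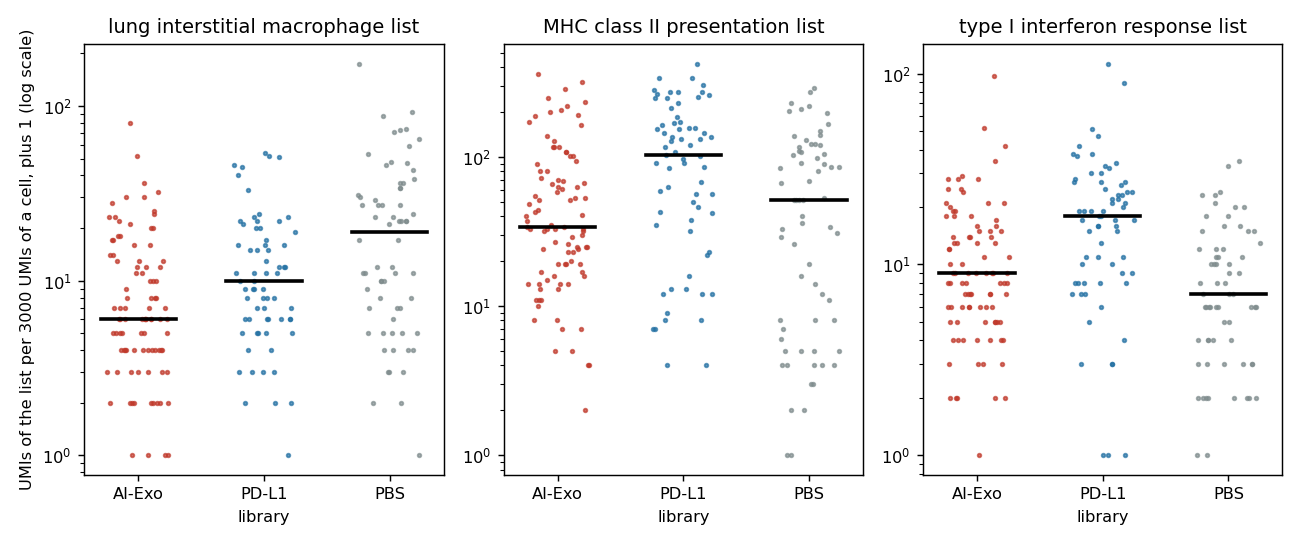
UMIs of 3 gene lists in each member after thinning to 3000 UMIs per cell, plus 1, on a log axis, by library (AI-Exo, PD-L1, PBS); each point is a cell and the black line is the median. The interstitial list was highest in PBS (median 18), and the MHC class II and type I interferon lists were highest in PD-L1 (medians 102 and 17).

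Several further macrophage genes were lowest in AI-Exo. Apoe had 2674 CPM in AI-Exo (2586 to 2765), 9866 in PD-L1 (9642 to 10094) and 10518 in PBS (10293 to 10748), with log2 ratios of -1.97 over PBS and -1.88 over PD-L1. AI-Exo was the low library, and PD-L1 differed from PBS by -0.09. Trf, transferrin, the plasma iron carrier, had 58.6 CPM in AI-Exo, 274 in PD-L1 and 263 in PBS. Mertk, the receptor for dying cells, had 45.5, 129 and 128 CPM, and 1 cell held 39.6% of its UMIs in PD-L1. The AI-Exo ratio of Mertk over PBS was -1.31, and fell short of 1.5-fold without the Mrc1-led cluster, at -0.54. Selenop, a selenium carrier, had 296, 721 and 1036 CPM, and without the top cell of each library it was lower in PD-L1 over PBS as well, at -0.61. Apoe was lower in AI-Exo than in PBS in each of the 4 clusters with 5 or more cells in every library; in the largest cluster it stood at 1271 CPM in AI-Exo, 3278 in PD-L1 and 1973 in PBS. Of the C1q genes, which the rule used, C1qa had 3124 CPM in AI-Exo, 4903 in PD-L1 and 4414 in PBS, within 1.5-fold of PBS in both treated libraries. Of the 20 genes of macrophage identity, 7 were lower and 0 higher in AI-Exo over PBS, and 3 lower and 0 higher in PD-L1 over PBS. The lowest of them in both contrasts was Mrc1, whose ratios are given above. Maf and Adgre1 were also lower in both treated libraries. Maf, a transcription factor of resident macrophages, had 177, 317 and 677 CPM and was chosen after its values were seen, and Adgre1, which encodes F4/80, had 166, 234 and 418.

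Lists that overlap with these genes gave similar counts. Of 14 scavenger receptors tested, 8 were lower and 0 higher in AI-Exo over PBS (median -0.72), and of 15, 7 were lower and 0 higher in PD-L1 over PBS (median -0.37). The scavenger call in AI-Exo fell short of 1.5-fold when neutrophil-marker cells were left out, at -0.56. It fell just short under the median of ratios and with the rule applied to thinned counts, at -0.58 in both. In the largest cluster alone it was -0.40. Alternative activation genes had 12 of 19 lower and 3 higher in AI-Exo over PBS (median -0.88), and 11 of 20 lower and 4 higher in PD-L1 over PBS (median -0.76). Both medians fell short of 1.5-fold without the Mrc1-led cluster, at -0.41 and -0.27, and in the largest cluster alone, at -0.40 and -0.20. The leading genes of the Mrc1-led cluster include genes of this list, so smaller medians without that cluster were built in. The scavenger list shares Cd163 and Stab1 with the interstitial list, and the alternative activation list shares these with F13a1 and Folr2, so they are not separate evidence. Lysosome genes had 8 of 28 lower and 1 higher in AI-Exo over PBS but 0 lower and 3 higher in PD-L1 over PBS. Grn, progranulin, a lysosomal glycoprotein, had 241, 415 and 615 CPM in AI-Exo, PD-L1 and PBS, and Ctsb, cathepsin B, had 1403, 1995 and 2219.8. Genes of iron and haem handling were lower in 7 of 15 and higher in 1 in AI-Exo over PBS, and lower in 5 and higher in 0 in PD-L1 over PBS. Hmox1, haem oxygenase 1, had 421, 383 and 718 CPM, with 51.2% of its PD-L1 and 49.0% of its PBS UMIs in 1 cell each.

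Interferon-stimulated genes were high in PD-L1 members. Of 30 genes of the type I interferon list tested, 23 were higher and 0 lower in PD-L1 over PBS, with a median of 0.86, while 6 of 28 were higher and 1 lower in AI-Exo over PBS, with a median of 0.18. In AI-Exo over PD-L1, 2 of 30 were higher and 19 lower, with a median of -0.67. This median fell short of 1.5-fold with the rule applied to thinned counts, at -0.39. In the median member after thinning, the list held 8 UMIs in AI-Exo, 17 in PD-L1 and 6 in PBS.

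The RefSeq promoter sequences (GRCm38.p6, 250 bases before to 50 after the start) of 3 list members higher in PD-L1 follow, 5′ to 3′ on the gene's strand, shown because they hold the core of the interferon-stimulated response element. Capitals mark matches to GAAANNGAAA or, on the other strand, TTTCNNTTTC; overlapping matches run together.
Isg15, chr4:156200769-156201068, minus strand: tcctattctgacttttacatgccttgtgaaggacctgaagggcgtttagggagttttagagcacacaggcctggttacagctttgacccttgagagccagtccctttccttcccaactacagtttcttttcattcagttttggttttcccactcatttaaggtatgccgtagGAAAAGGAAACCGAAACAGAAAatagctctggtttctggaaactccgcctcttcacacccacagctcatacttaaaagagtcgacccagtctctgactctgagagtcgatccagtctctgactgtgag
Rsad2, chr12:26456403-26456702, minus strand: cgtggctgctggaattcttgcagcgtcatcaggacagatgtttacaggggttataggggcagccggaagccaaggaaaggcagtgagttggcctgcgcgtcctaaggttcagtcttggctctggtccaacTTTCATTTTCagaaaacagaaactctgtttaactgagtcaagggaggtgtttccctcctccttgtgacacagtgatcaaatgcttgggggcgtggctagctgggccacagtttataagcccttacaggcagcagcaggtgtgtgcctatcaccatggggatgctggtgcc
Ifit3, chr19:34583279-34583578, plus strand: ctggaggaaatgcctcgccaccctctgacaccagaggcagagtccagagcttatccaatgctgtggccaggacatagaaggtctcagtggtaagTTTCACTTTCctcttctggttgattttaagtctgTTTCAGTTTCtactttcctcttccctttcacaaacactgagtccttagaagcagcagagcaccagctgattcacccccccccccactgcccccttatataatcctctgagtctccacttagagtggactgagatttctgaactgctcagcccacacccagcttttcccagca
Counted from the start site, the core begins at positions -78, -72 and -66 in Isg15, at -120 in Rsad2, and at -156 and -122 in Ifit3. Among the 23 list members higher in PD-L1, 18 matched the promoter table by symbol and 11 of these held the core (61.1%). Of the 6 matched members that were not higher, 3 held it. Counted by gene in the same way, 3.99% of all 27025 genes in the table held it. A match is a description of the letters and not evidence of binding.

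Isg15, a ubiquitin-like protein with the 3 matches shown above, had 624 CPM in AI-Exo (581 to 668), 707 in PD-L1 (648 to 770.3) and 307 in PBS (269.9 to 349). Here both treated libraries stood above PBS, with log2 ratios of 0.997 and 1.18. Rtp4, an interferon-induced inhibitor of viral replication, had 75.5, 121 and 29.3 CPM. Ifit3, an antiviral effector, had 54.0, 92.8 and 21.7 CPM and shares sequence with Ifit3b, so its own level is uncertain. A second set was high in PD-L1 only: Rsad2, which encodes the antiviral enzyme viperin, had 245 CPM in AI-Exo, 674 in PD-L1 and 241 in PBS, and Xaf1, a pro-apoptotic interferon target, had 20.04, 90.1 and 25.5. Ifi27l2a had 653, 1004 and 494 CPM. Ifit1 was highest in AI-Exo, with 358, 214 and 184 CPM, and 1 cell held 39.6% of the PBS UMIs. Slfn5, a member of the schlafen family, was the list's 1 gene lower in AI-Exo over PBS, with 37.0, 92.8 and 79.1 CPM. Isg15 was higher in AI-Exo and in PD-L1 than in PBS within each of the 4 clusters with 5 or more cells in every library, for example at 588, 1136 and 129.7 CPM in the largest. Rsad2 and Ifit3 fall outside the rule for named genes and were chosen for their promoters after their values were seen.

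**Figure D3:**
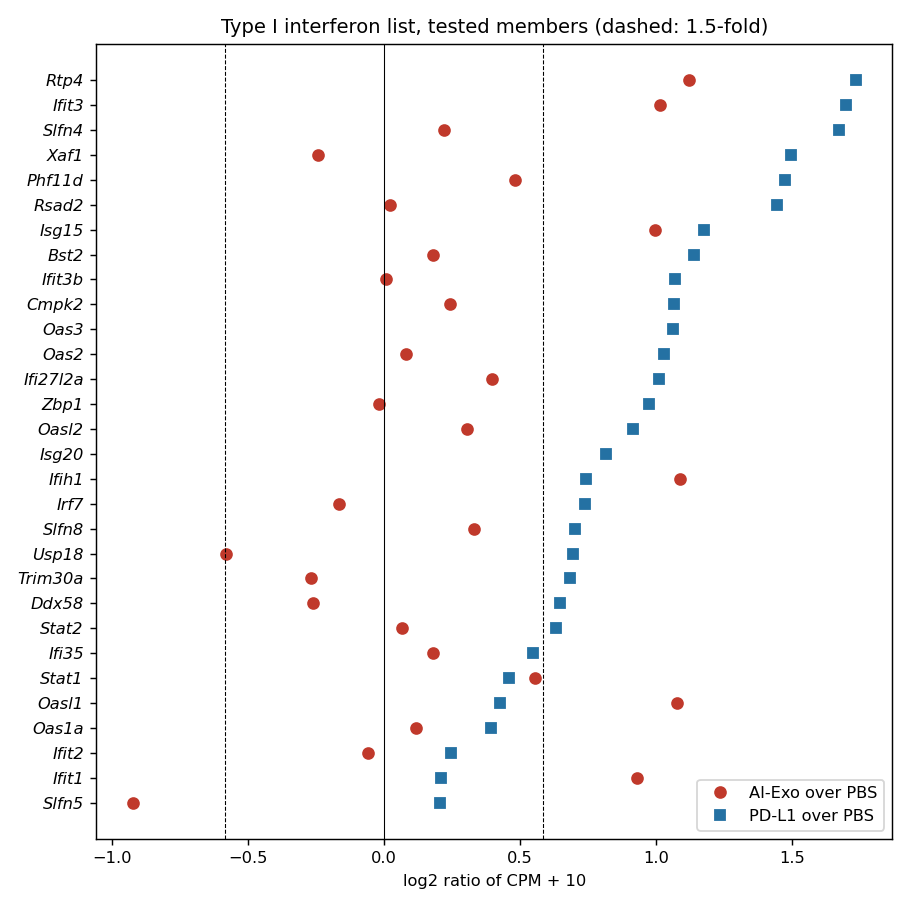
Log2 ratio of CPM plus 10 (horizontal axis) of each tested member of the type I interferon list, in AI-Exo over PBS (circles) and PD-L1 over PBS (squares); dashed lines mark a ratio of 1.5. Of the squares 23 of 30 lie past the right line and none past the left.

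The interferon gene itself was also read in members. Ifnb1, interferon beta, had UMIs in 25 of 97 members in AI-Exo, 14 of 75 in PD-L1 and 13 of 68 in PBS, at 469, 253 and 333 CPM. At 3000 UMIs per cell it was in 21.3%, 8.96% and 15.2% of members, against 0.415%, 0.328% and 0.285% of B cells. The share was thus above that in B cells. The log2 ratios were 0.48 in AI-Exo over PBS and -0.38 in PD-L1 over PBS, within 1.5-fold. A single member held 18.6% of the UMIs in AI-Exo, 38.8% in PD-L1 and 40.6% in PBS. Without these members Ifnb1 had 387, 157 and 203 CPM, and AI-Exo over PBS passed 1.5-fold at 0.90. With the rule applied to thinned counts, PD-L1 over PBS passed it at -0.93.

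Genes of the interferon gamma list did not follow the type I list. In PD-L1 over PBS 2 of 23 were higher and 9 lower (median -0.34), in AI-Exo over PBS 4 were higher and 7 lower (median -0.22), and in AI-Exo over PD-L1 9 were higher and 0 lower. Cxcl9, a T cell chemokine induced by interferon gamma, had 193 CPM in AI-Exo, 20.2 in PD-L1 and 318 in PBS, in 29, 5 and 14 cells. PD-L1 was the low library, but 1 cell held 43.0% of the PBS UMIs, and its order depended on the choice of cells. Cxcl10, which both interferon types induce, had 1977, 1586 and 523 CPM, with log2 ratios of 1.90 and 1.58 over PBS. Cd274, which encodes PD-L1 itself, had 317, 187 and 126 CPM, past 1.5-fold in AI-Exo over PBS (1.26) and not in PD-L1 over PBS (0.53).

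Several genes of MHC class II antigen presentation were high in PD-L1 members. Cd74, the invariant chain, had 6628 CPM in AI-Exo (6489 to 6769.9), 12579 in PD-L1 (12326 to 12837) and 6496 in PBS (6319 to 6677). PD-L1 was the high library, and the intervals of AI-Exo and PBS overlapped. H2-Ab1 had 2691, 6359.5 and 3112 CPM, and H2-Eb1 had 3958, 8406 and 4792. Over the list, 5 of 12 were higher and 0 lower in PD-L1 over PBS (median 0.37), 2 of 11 higher and 0 lower in AI-Exo over PBS (median -0.16), and 0 of 12 higher and 5 lower in AI-Exo over PD-L1 (median -0.50). The 2 higher in AI-Exo were the co-stimulatory genes Cd86 (680.0, 558 and 434 CPM) and Cd40 (67.8, 44.4 and 40.8 CPM). After thinning, the median member held 33 UMIs of the list in AI-Exo, 102 in PD-L1 and 50 in PBS, and its spread was wide in PBS, from 6.25 at the lower quartile to 108.25 at the upper. B2m, the light chain of class I molecules, had 2562, 3260.4 and 2338 CPM. The class I list had 4 of 20 higher and 1 lower in PD-L1 over PBS, and 2 higher and 3 lower in AI-Exo over PBS.

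More cytokine and immediate early genes lay higher than lower in both treated libraries over PBS. Cytokine genes had 9 of 22 higher and 2 lower in AI-Exo over PBS, and 6 higher and 1 lower in PD-L1 over PBS. Il1b, interleukin 1 beta, had 1744 CPM in AI-Exo (1673 to 1817), 1188 in PD-L1 (1112 to 1269.5) and 680.0 in PBS (623 to 740.2). Ptgs2, the inducible cyclooxygenase, had 379, 258 and 114 CPM, and Tnf had 573, 546 and 325. These 3 genes were lowest in PBS, as was Nfkbia, an inhibitor of NF-kappaB (2133, 2337 and 1417 CPM). Il10, the anti-inflammatory cytokine, had 19.3, 61.8 and 145 CPM, but in only 11, 5 and 8 cells, with 73.9% of its PD-L1 UMIs in 1. Immediate early genes had 8 of 17 higher and 0 lower in AI-Exo over PBS and 6 higher and 1 lower in PD-L1 over PBS: Atf3, a stress-induced factor, had 1782, 1709 and 808 CPM and Fos 4077, 4944 and 2382. The medians of the immediate early list were 0.52 and 0.49, and without the Mrc1-led cluster 0.11 and 0.17. Heat shock genes had 9 of 15 higher and 0 lower in PD-L1 over PBS (median 0.67, or 0.47 by the mean over cells, short of 1.5-fold) and 2 higher and 0 lower in AI-Exo over PBS (median 0.29). Hspa1a, an inducible chaperone that shares sequence with Hspa1b, had 1017, 1892 and 829 CPM, and Hsp90aa1, a cytosolic chaperone chosen after its values were seen, had 779, 1314 and 628. Hspb1 had 23.1, 313 and 29.3 CPM in 9, 12 and 9 cells.

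Chemokine genes went both ways, with 8 of 20 higher and 8 lower in AI-Exo over PBS and 6 of 21 higher and 7 lower in PD-L1 over PBS. Ccl4, an inflammatory chemokine, had 6082 CPM in AI-Exo, 4789 in PD-L1 and 3156 in PBS. Cxcl2, a neutrophil attractant, had 5702, 4527 and 3049 CPM. Ccl5, a chemokine that draws T cells, was highest in AI-Exo with 977, 243 and 332 CPM, and 1 cell held 19.97%, 45.3% and 60.4% of it. Of the summed natural killer cell markers, 1 cell held 25.8%, 95.9% and 94.8%, and their part in the level of Ccl5 was not tested. Cxcl3 had 13.9, 17.5 and 135 CPM, with 45.3% of the PBS UMIs in 1 cell. Matrix genes had 8 of 20 higher and 5 lower in AI-Exo over PBS and 5 of 21 higher and 2 lower in PD-L1 over PBS. Mmp12, macrophage elastase, had 277, 417 and 74.0 CPM and kept its ratios without its top cell, at 1.93 and 2.47 over PBS. Thbs1, thrombospondin 1, was high in AI-Exo, with 453, 173 and 138 CPM. Spp1, osteopontin, had 771, 143 and 808 CPM, but 1 cell held 84.2% of the PBS UMIs and 50.1% of the AI-Exo UMIs; without the top cell of each library it had 393, 119 and 133 CPM.

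The remaining lists are given by their counts past 1.5-fold. Of the lipid genes tested, 2 of 24 were higher and 2 lower in AI-Exo over PBS and 3 of 25 higher and 0 lower in PD-L1 over PBS; Lpl, lipoprotein lipase, had 153, 149 and 130.1 CPM. Trem2, a lipid-sensing receptor, had 161, 273 and 305 CPM, and Fabp5, a fatty acid carrier, had 971, 569 and 647, with 34.9%, 48.0% and 55.2% of it in 1 cell. Autophagy genes had 1 of 26 higher and 1 lower in AI-Exo over PBS and 0 of 25 higher and 3 lower in PD-L1 over PBS. Sqstm1, the autophagy receptor p62, had 554, 742 and 527 CPM and Gabarap 646, 558 and 623. Efferocytosis genes had 3 of 17 higher and 6 lower in AI-Exo over PBS and 1 of 16 higher and 4 lower in PD-L1 over PBS, Gas6 and Stab1 among the lower in both. Checkpoint genes had 1 of 16 higher and 3 lower, and 0 of 17 higher and 4 lower. Fc and innate receptors had 2 of 20 higher and 6 lower, and 0 of 19 higher and 1 lower, that 1 being Fcgr2b, the inhibitory Fc receptor (258, 272 and 536 CPM). Complement genes had 1 of 16 higher and 5 lower, and 1 of 16 higher and 4 lower. Glycolysis genes had 1 of 18 higher and 0 lower, and 3 of 18 higher and 0 lower, with the glucose transporter Slc2a1 at 60.1, 76.6 and 25.5 CPM. Hypoxia genes had 2 of 11 higher and 2 lower, and 2 of 11 higher and 1 lower. Cell division genes had 9 of 20 higher and 1 lower in AI-Exo over PBS and 3 of 18 higher and 1 lower in PD-L1 over PBS, while Mki67, a marker of cycling cells, had 57.0, 28.2 and 52.3 CPM in 23, 7 and 11 cells.

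**Figure D4:**
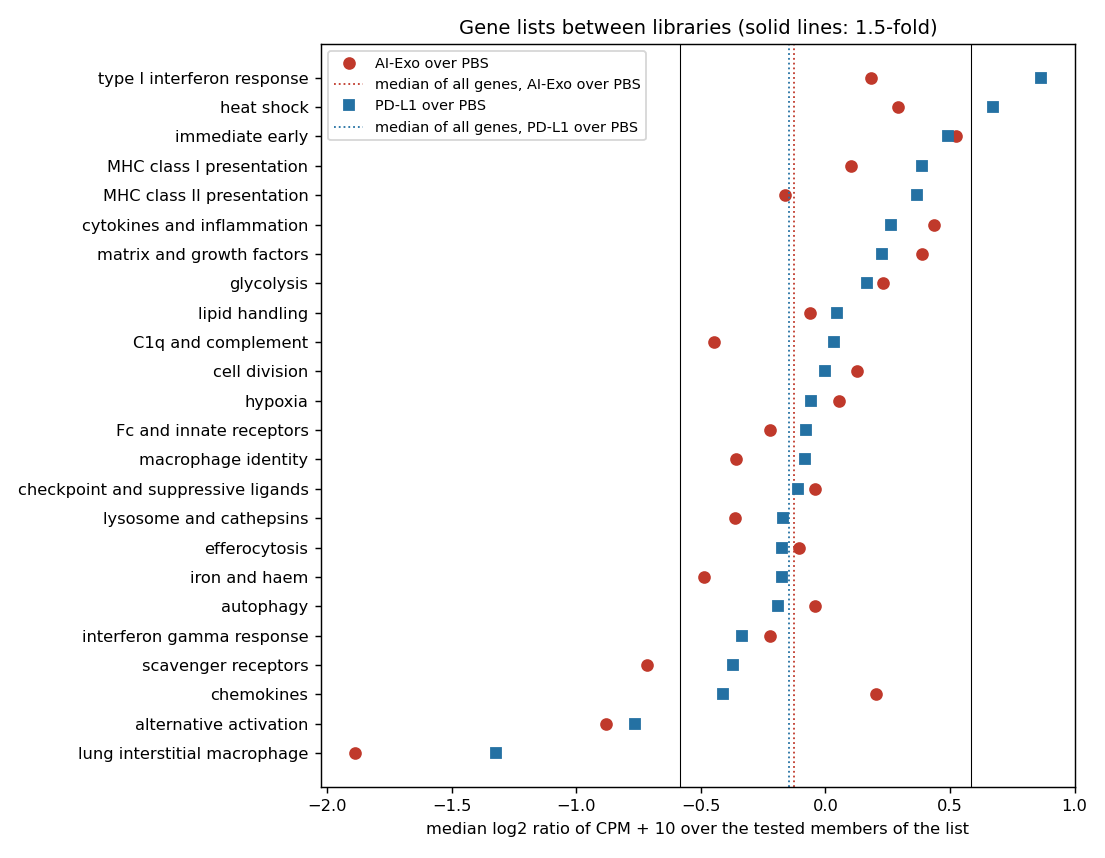
Median log2 ratio of CPM plus 10 (horizontal axis) over the tested members of each of 24 gene lists, for AI-Exo over PBS (circles) and PD-L1 over PBS (squares); solid lines mark a ratio of 1.5 and dotted lines the median of all genes tested. The interstitial list lies farthest left in both (-1.89 and -1.32), and the type I interferon list farthest right in PD-L1 over PBS (0.86).

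The largest single-gene ratios in AI-Exo over PBS were neutrophil genes. S100a8, a calcium-binding alarmin of neutrophils, had 3615 CPM in AI-Exo, 977 in PD-L1 and 506 in PBS, and its partner S100a9 had 6868, 2062 and 1138. A bound on free RNA, from B cell genes that the rule did not use, stood at 52.7, 32.1 and 19.7 CPM of S100a8. The rule leaves out cells with Cd79a or Ms4a1, so this bound can be too low, and genes of other cell types gave higher ones. Without the members at 1% or more neutrophil markers its ratio was 1.48 in AI-Exo over PBS and 0.14 in PD-L1 over PBS, against 2.81 and 0.94 with them. Lcn2 had 325, 18.8 and 42.1 CPM. Camp, an antimicrobial peptide of neutrophil granules, had 850 UMIs in AI-Exo and 0 in PD-L1 and PBS, and 1 cell held 95.4% of them. Ngp, a granule protein, had 413, 1 and 3 UMIs, with 75.5% of the AI-Exo UMIs in 1 cell. Without those members, the interstitial medians were -2.02 in AI-Exo over PBS and -1.22 in PD-L1 over PBS, and the type I interferon median in PD-L1 over PBS was 0.77. The highest ratios in PD-L1 over PBS also rested on few cells: Retnla, a gene of alternative activation, had 642 UMIs in PD-L1 and 0 in AI-Exo and PBS, with 99.7% in 1 cell. Chil3, another such gene, was low in PD-L1, with 150.3, 16.1 and 82.9 CPM. Lyz1, a lysozyme, had 1, 193 and 5 UMIs, and Ccl17, a dendritic cell chemokine, had 5, 3 and 2 positive cells.

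Within a library, members can be set beside the cells of the same gate with Arg1 detected, 28 in AI-Exo, 15 in PD-L1 and 57 in PBS. Of the genes tested, 16.4% were higher and 13.1% lower in members of AI-Exo, 14.2% and 19.8% in PD-L1, and 15.1% and 9.52% in PBS. The rule used Arg1, so these are descriptions. Glycolysis genes were lower in members in 15, 13 and 13 of 18 tested in AI-Exo, PD-L1 and PBS and higher in 0, with medians of -1.19, -0.81 and -1.40. Hypoxia genes were lower in 12 of 13, 7 of 13 and 10 of 14, with medians of -1.14, -0.68 and -1.81. The hypoxia median fell short of 1.5-fold in AI-Exo with the rule applied to thinned counts, at -0.35. In PD-L1 it did so at a C1q minimum of 20, at -0.55. MHC class II genes were higher in 6 of 13, 10 of 13 and 8 of 11 and lower in 3, 1 and 0, with medians of 0.57, 1.38 and 1.99. The median in AI-Exo was short of 1.5-fold. Cell division genes were higher in 17 of 18, 12 of 15 and 2 of 19 and lower in 0, 1 and 2, with medians of 1.91, 1.58 and 0.25. These rested on few UMIs. After thinning, the median cell held 1 UMI of the list in members and 0 in Arg1-detected cells of each library. Members with 10 or more were 10.6%, 7.46% and 7.58%, against 0%, 0% and 5.56% of Arg1-detected cells.

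The single genes that follow were chosen for lying on the same side in all 3 libraries, so that agreement is no finding. Tmem176b, an ion channel gene of antigen-presenting cells, had 347 CPM in members of AI-Exo, 527 in PD-L1 and 353 in PBS, against 69.1, 33.0 and 30.2 in Arg1-detected cells. Mgl2, a lectin of dendritic cells and macrophages, had 160.4, 281 and 282 CPM in members and 23.9, 56.6 and 8.04 in Arg1-detected cells. Apoe and Cx3cr1, the fractalkine receptor, were also higher in members in each library, with log2 ratios of 1.39, 1.33 and 1.66 for Apoe and 1.87, 1.17 and 2.66 for Cx3cr1. With the rule applied to thinned counts, these ratios in AI-Exo were 0.28 for Apoe and 0.25 for Cx3cr1, short of 1.5-fold. Cells whose Arg1 UMIs were lost to thinning count as members there. Ifnb1 stood at 39.9, 75.5 and 108 CPM in Arg1-detected cells, below members in each. On the other side, Saa3, an acute-phase protein, had 46.3, 21.5 and 10.2 CPM in members and 2396, 495 and 1636 in Arg1-detected cells. Fn1, fibronectin, had 95.6, 153 and 219 CPM in members and 1696, 897 and 1072 in Arg1-detected cells, and the hypoxia-induced Hilpda had log2 ratios of -2.35, -1.82 and -3.42. Pgk1, a glycolytic enzyme, had log2 ratios of -1.88, -2.11 and -2.57. In Arg1-detected cells the type I interferon median was 1.13 in PD-L1 over PBS and 0.11 in AI-Exo over PBS, and the interstitial median was -0.02 and -0.83.

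**Figure D5:**
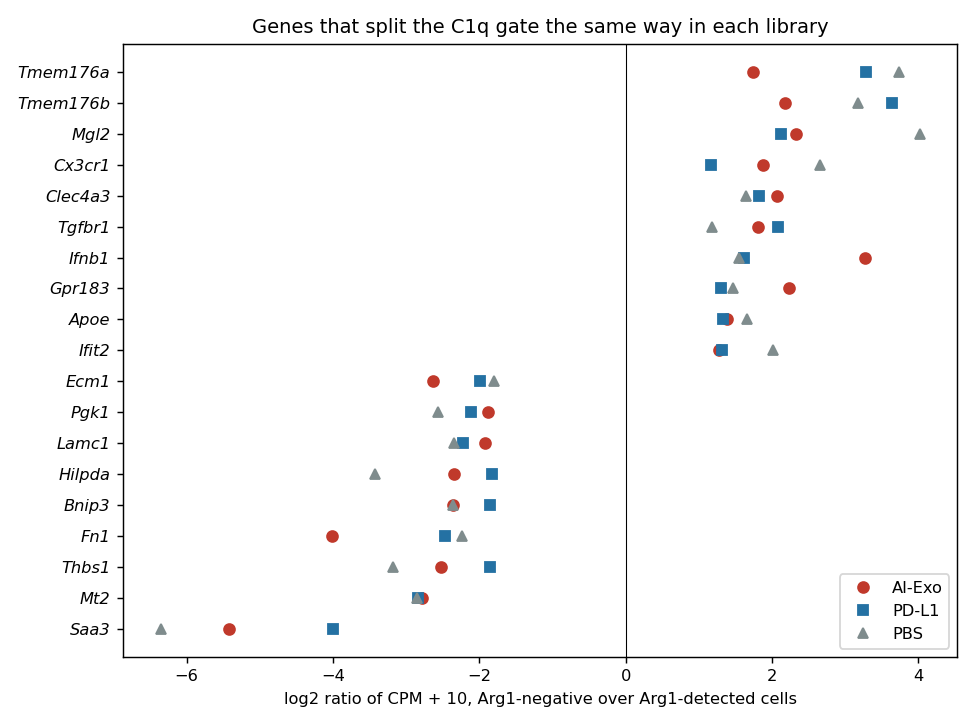
Log2 ratio of CPM plus 10 of members over Arg1-detected cells of the same gate (horizontal axis) for 19 genes that lay on the same side of 0 in every library; symbols are the libraries AI-Exo, PD-L1 and PBS. Saa3 lies farthest left, down to -6.35 in PBS, and Mgl2 reaches 4.02 in PBS.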

How the data were processed

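Cells of mouse non-small cell lung cancer were profiled by droplet single-cell RNA sequencing (chemistry 3′ v3.1 per the labels), 1 library each for AI-Exo, PD-L1 and PBS. The deposited matrices hold raw UMI counts per gene and barcode for 32285 genes. Cell Ranger 7.1.0 wrote them, per the file headers; per the submitters' processing notes the version was 3.0.2. The sources used here name no genome build. Barcodes with 500 or more UMIs, 200 or more genes and at most 20% mitochondrial UMIs were kept as cells. UMIs of members were summed per library and scaled to CPM, and log2 ratios used a pseudocount of 10 CPM on genes with a mean of 10 CPM or more. A ratio of 1.5 is a rule of size, since groups of 1 library allow no test. The computation recovered known folds on simulated data that held counting error only, in genes at 100 CPM or more. The simulation had no spread between cells or libraries, so it does not bear on how often a 1.5-fold call would repeat. Intervals are exact Poisson or Clopper-Pearson at 95%. Members were clustered with scanpy 1.11.5 (Leiden resolution 0.5), for description only. Doublet scores are from Scrublet. The free RNA bound uses barcodes of up to 100 UMIs and B cell genes. Members and gene lists were chosen with earlier results of these data known.

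Named genes are, in each comparison, the 5 highest and 5 lowest ratios at 100 CPM or more and 50 UMIs or more, the extreme and the most abundant members of each of 24 lists, fixed macrophage genes, and the 10 strongest each way in all 3 libraries for the split by Arg1; genes of mitochondria, ribosomes, antigen receptors or haemoglobin, Xist, Tsix, Y-linked genes and predicted or clone-named models were excluded. Alternatives changed the C1q, Arg1, UMI and mitochondrial limits, depth, doublets, scaling, pseudocount, averaging, free RNA, cluster and low-gene filter. A result that the rule for named genes would give is not reported here.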

Additional observations from a re-analysis of the deposited data

How the results depend on the processing

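With 1 library per group, no alternative measures the spread between animals, and depth limits genes under about 10 CPM. No paired analysis was possible because each group has 1 library. Leaving out members rich in neutrophil markers, the Mrc1 Cd163 F13a1 cluster or each gene's top cell was chosen after seeing the data. That cluster was picked by its leading genes, so smaller differences in those genes without it were built in. Where a value is given without a cause, the cause was not tested.

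In the thinned setting, cells under 3000 UMIs were left out and the rule was applied to counts thinned to 3000. Gene and list ratios then summed the full counts of the cells so chosen. This setting gave shares of members of 1.22% in AI-Exo, 1.33% in PD-L1 and 1.66% in PBS. A C1q minimum of 20 gave 0.608% in PD-L1. Among counts of genes past 1.5-fold, the thinned setting gave 505 lower in PD-L1 over PBS and 418 lower in members over Arg1-detected cells of PBS. The median of ratios gave 705 lower in AI-Exo over PBS, and 687 higher and 747 lower in PD-L1 over PBS. A pseudocount of 1 gave 1701 lower in AI-Exo over PBS, 701 higher and 1824 lower in PD-L1 over PBS, and 907 higher and 821 lower in AI-Exo over PD-L1. The mean over cells gave 708 lower in AI-Exo over PD-L1. With no low filter, 669 were higher in PD-L1 over PBS, 693 lower in AI-Exo over PD-L1, and 1927 and 2111 higher in members over Arg1-detected cells of AI-Exo and PD-L1. The largest cluster, which has fewer cells, gave 1215 higher and 1724 lower in AI-Exo over PBS, 1337 and 2071 in PD-L1 over PBS, and 1293 and 1377 in AI-Exo over PD-L1.

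In the largest cluster the log2 ratios in AI-Exo over PBS changed sign for Mrc1 (0.0023), Csf1r (0.95), Gas6 and Lyve1 (0.34 each), Folr2 (1.21), Pf4 (1.75), Ccl8 (0.43), Selenop (1.02), Cd83 (-0.16), Cd274 (-0.0674), Nfkbia (-0.34), Hmox1 (1.13), Fcgr2b (0.0916) and Slfn5 (0.61). In PD-L1 over PBS they changed sign for Mrc1 (0.34), Maf (0.17), F13a1 (0.0647), Gas6 (1.54), Clec10a (0.16), Folr2 (1.29), Pf4 (0.0628), Ccl8 (0.66) and Tmem119 (-0.19), and in AI-Exo over PD-L1 for Ccl5 (-0.14). The thinned setting turned round Cxcl9 (0.63 in AI-Exo over PBS and 0.0234 in PD-L1 over PBS). In PD-L1 over PBS it also turned round Ccl12 (-0.83), S100a8 (-0.0448), S100a9 (-0.18) and Ccl17 (-0.24). The mean over cells turned round Cxcl9 in AI-Exo over PBS (0.16), and a C1q minimum of 20 Ly6c2 in PD-L1 over PBS (-0.88). Leaving out neutrophil-marker cells turned round S100a9 in PD-L1 over PBS (-0.50). Leaving out the Mrc1 Cd163 F13a1 cluster turned round Hmox1 (0.58 in AI-Exo and 0.57 in PD-L1 over PBS), and Folr2 (0.37) and Ccl8 (0.49) in PD-L1 over PBS. Of 32 list medians past 1.5-fold, 19 stayed past it in the thinned setting, 12 fell short and 1 changed sign. The interferon gamma median of members over Arg1-detected cells in PD-L1 was 0.0116 at a C1q minimum of 20 and 0.0014 in the thinned setting.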
